A study of Solanum tuberosum with 12 samples.

Results

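The *StRIK*-RNAi hairpin was built from a fragment of *StRIK*, and a sequence search by the study with that fragment listed 7 transcripts of other genes. The study judged that cross-silencing of them was unlikely, because their matches to the fragment were short and partial. They are called possible off-targets here. These 7, of the 54416 transcripts in the files, are the subject here. They were taken from that list alone, whatever their abundance. They are PGSC0003DMT400014640, PGSC0003DMT400014643 and PGSC0003DMT400014644, all annotated as *EMB1865*, PGSC0003DMT400055483 (conserved gene of unknown function), PGSC0003DMT400042918 (ATP binding protein), PGSC0003DMT400073845 (Dnajc14 protein) and PGSC0003DMT400030423 (extensin). Beside them stand the 3 *StRIK* isoforms that the fragment matches (PGSC0003DMT400064729, PGSC0003DMT400064730 and PGSC0003DMT400064731) and the fourth isoform, PGSC0003DMT400064735, which the study lists as not targeted.

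Across the 9 RNAi libraries the 3 targeted *StRIK* isoforms together stood at 58.1% of the Wild type mean. Every RNAi library was below every Wild type library, in lines that the study had chosen for lowered *StRIK*. The 6 possible off-targets with more than a few counts stood between 89.6% and 103.7% of Wild type, and their groups overlapped. By edgeR with Benjamini-Hochberg adjustment 0 of the 7 passed, beside 0.0391% of all transcripts tested. Summed *StRIK* did not pass that test over the 9 libraries either (edgeR, Benjamini-Hochberg, adjusted p = 0.355). For 0 of the 7 possible off-targets were all RNAi libraries below or all above every Wild type library, beside 0.584% of transcripts (all below) and 0.683% (all above). The seventh, the extensin transcript, had at most 3.2 effective counts in any library, too few to compare.

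RNA was sequenced from the tuber periderm, the skin of the tuber, dissected from plants of *Solanum tuberosum* cultivar Désirée grown in soil for 3 months under 12 h light and 12 h dark. The groups were *StRIK*-RNAi line 9, line 12 and line 47, each carrying the *StRIK* hairpin in the vector pBIN19RNAi, and the Wild type, with 3 biological replicates in each group and 12 libraries in all. Each RNAi line descends from 1 transformation event, so its replicates are not independent insertions, and the RNAi plants were regenerated as kanamycin-resistant plants. The study had chosen these 3 lines among its transformants for lowered *StRIK* by RT-qPCR. The skin held mainly phellem, the outer corky layer, with some phellogen, the layer that produces it. In bulk RNA of this kind, fewer cells of a type and less RNA per cell cannot be told apart. The study's own comparison used 6 RNAi libraries, chosen for low *StRIK*: all 3 of line 47, replicates 2 and 3 of line 12, and replicate 1 of line 9.

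RNA interference starts from double-stranded RNA, which Dicer-like enzymes cut into small interfering RNAs. Argonaute proteins carry one strand of each and use it to find transcripts with a matching sequence, which are then cut or kept from translation. A hairpin can therefore lower a transcript of another gene where a long enough stretch of sequence is shared, and such a transcript is called an off-target. RIK is a KH-domain RNA-binding protein, first described in maize as a partner of ROUGH SHEATH2.

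The fragment at the positions that the study states for the hairpin of all 3 lines is printed. Both the intended and the possible unintended matches are defined by the hairpin fragment. It was cut from the genomic *StRIK* sequence of the study after splicing it in silico to a coding sequence of 1779 nt in 12 exons. The gene is on chromosome 2. The fragment is 246 nt long, 13.8% of the coding sequence, with a GC content of 45.5%, and holds the last 21 nt of exon 8, all 118 nt of exon 9 and the first 107 nt of exon 10. It is given 5′ to 3′ on the coding strand, with exon 9 in capitals. The sequence follows the coding positions that the study states, and the cloned construct itself was not sequenced here. The genomic sequence used encodes the RIK protein of the Phureja group of *S. tuberosum*, not that of the *StRIK* cloned from Désirée. Within the fragment a codon reads histidine where the Désirée protein in the study's alignment has tyrosine. The study's search listed its fragment as fully identical to Phureja RIK transcripts, so which base the construct carries there is not known. The primers that the study lists for cloning the construct did not match this sequence, as described under the other observations.
StRIK RNAi fragment: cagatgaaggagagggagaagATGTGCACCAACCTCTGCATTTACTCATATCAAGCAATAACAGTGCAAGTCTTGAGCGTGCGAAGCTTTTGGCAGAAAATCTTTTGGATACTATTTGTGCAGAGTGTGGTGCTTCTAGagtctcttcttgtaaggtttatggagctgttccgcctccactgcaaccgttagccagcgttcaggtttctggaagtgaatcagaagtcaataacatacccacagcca

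**Figure D1:**
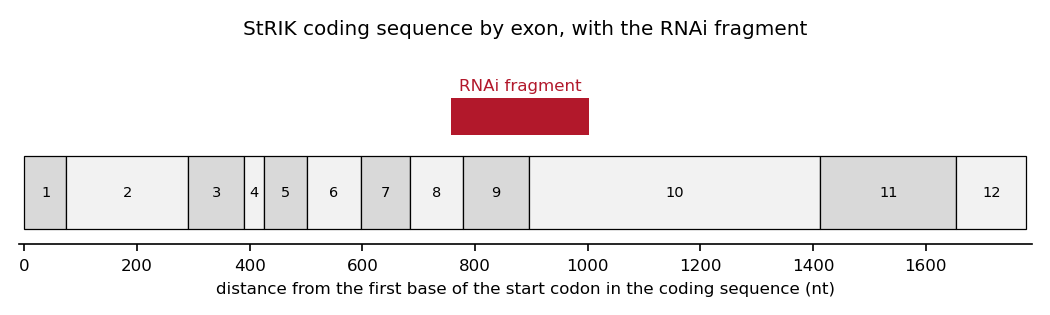
Map of the *StRIK* coding sequence. Numbered boxes are the 12 exons, drawn to scale in nt from the start codon, and the red bar above them is the 246 nt RNAi fragment. The bar covers all of exon 9, with 21 nt of exon 8 before it and 107 nt of exon 10 after it.

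The values are effective counts, which are reads assigned to a transcript and corrected for fragment length and bias. They were deposited without normalization and were rounded here and scaled to the mean library size by edgeR's TMM method (normalized effective counts). They are not per length, so levels are compared between libraries and not between genes. Total effective counts were between 18650236 and 21585122 per library. Among the Wild type, replicate 3 stood apart. Its correlation with replicates 1 and 2 over 38364 transcripts on the log2 scale was 0.9704 and 0.9658, against 0.9871 between replicates 1 and 2, and it was the highest Wild type library for 5 of the 6 countable off-target candidates. Replicate 1 stood apart likewise in line 12, at 0.9727 and 0.9682 with replicates 2 and 3, against 0.9907 between those, and in line 9, at 0.9700 and 0.9681, against 0.9793. The file names carry a tag, L6 or L7, whose meaning the labels do not give. It is called the lane tag here only as a name, and whether it marks a sequencing lane is not known. Tag 6 marks line 47 replicates 2 and 3 and all 3 Wild type libraries, and tag 7 marks the other 7 RNAi libraries. Genotype can thus be compared within tag 6 only. The labelled tissue was not checked against marker genes here. Reads that match several isoforms were divided among them by the counting program, so the counts of isoforms of 1 gene depend on each other.

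The targeted gene was examined first in every library. The 3 targeted *StRIK* isoforms summed to 898.0, 1442.0 and 1210.0 normalized effective counts in line 9 replicates 1 to 3, to 1018.1, 830.9 and 736.4 in line 12 and to 702.9, 984.6 and 982.0 in line 47, against 1756.8, 1646.4 and 1647.0 in the Wild type. All 9 RNAi libraries lay below the lowest Wild type library, and line 9 replicate 2 came nearest to it. The RNAi mean was 978.3 ± 232.6 (SD, n = 9) and the Wild type mean 1683.4 ± 63.6 (SD, n = 3), with p = 0.009091 by exact permutation (two-sided), which is the smallest value possible with 9 libraries against 3. The lines had been chosen for lowered *StRIK*, so a decrease was selected for in advance and this p is not independent support for it. The test also takes the libraries of a line as independent. By line, *StRIK* was at 70.3% of Wild type in line 9, 51.2% in line 12 and 52.9% in line 47. Single isoforms ranged between 54.3% and 61.8% of Wild type over the 9 RNAi libraries. By edgeR (Benjamini-Hochberg adjustment over all transcripts) the summed *StRIK* difference in all 9 libraries had a log2FC of -0.78 with adjusted p = 0.355, so the *StRIK* difference itself did not pass the threshold over all 9 libraries, while over the 6 chosen for low *StRIK* its adjusted p was 0.0464 (edgeR, Benjamini-Hochberg).

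Isoform PGSC0003DMT400064735, which lacks the match, had 229.8, 323.9 and 290.3 normalized effective counts in line 9, 268.7, 194.6 and 198.3 in line 12 and 180.6, 275.3 and 205.7 in line 47, against 311.0, 295.3 and 365.5 in the Wild type. Of the 9 RNAi libraries, 8 were below every Wild type library, and line 9 replicate 2 was within their range. It stood at 74.4% of Wild type (95% interval 57.5 to 96.3%, unadjusted p = 0.0278 and adjusted p = 0.714 in edgeR's test with Benjamini-Hochberg adjustment). How far the division of shared reads among isoforms enters this value was not tested.

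**Figure D2:**
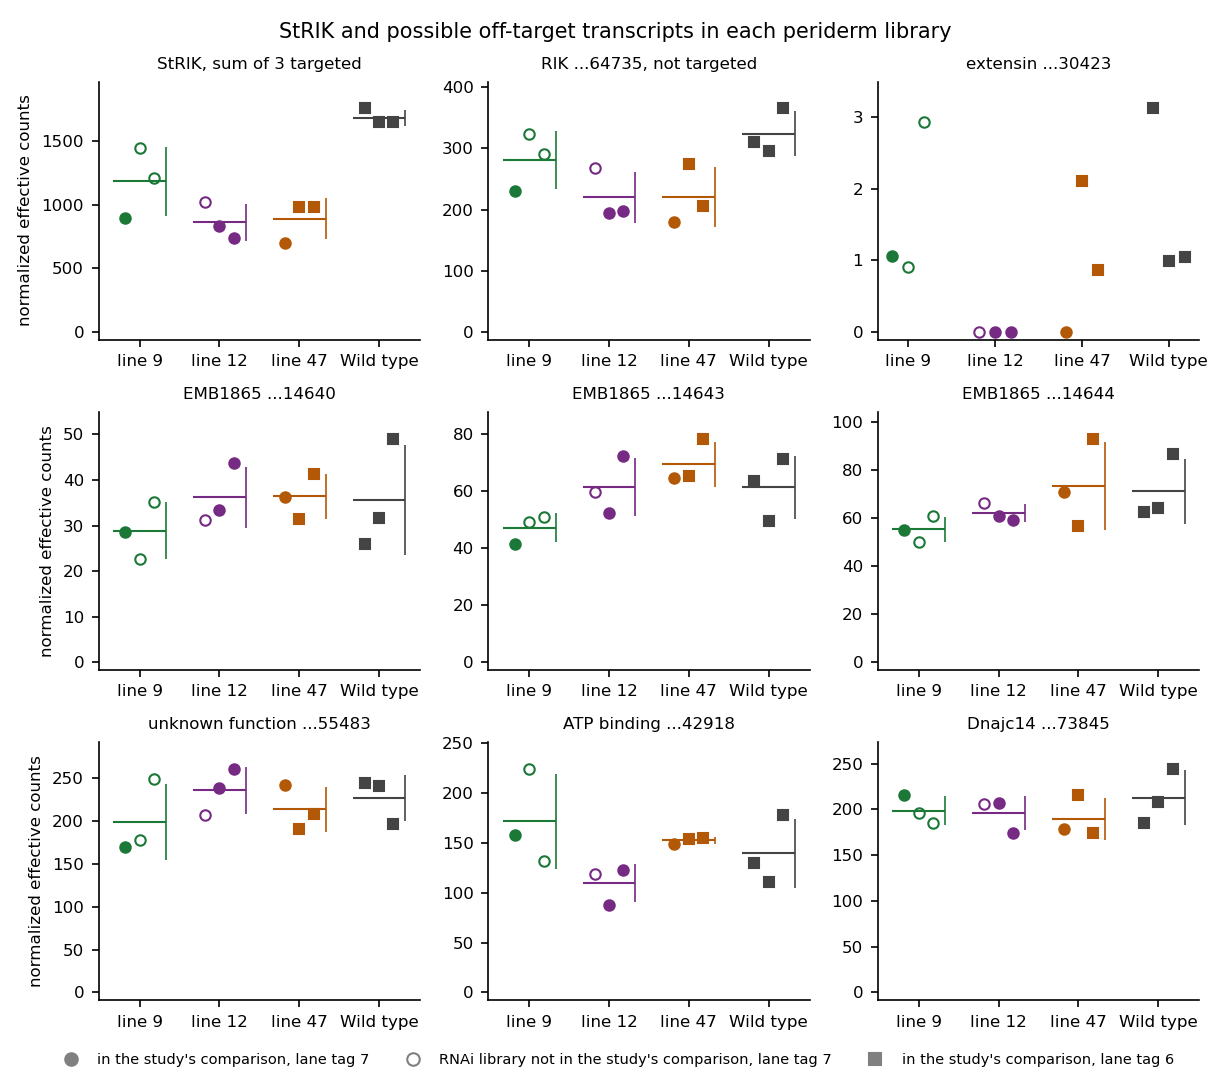
Normalized effective counts (y axes, each from 0) of *StRIK*, of the untargeted RIK isoform and of the 7 possible off-targets in every library, by line and with the Wild type at the right. Points are libraries, horizontal lines the group means and vertical lines 1 SD (not drawn for extensin), open points are RNAi libraries outside the study's comparison and squares are lane tag 6. For *StRIK* the RNAi libraries, at 702.9 to 1442.0, lie apart from the Wild type at 1646.4 to 1756.8, while each of the other panels but that of the untargeted isoform shows at least 2 RNAi libraries within the Wild type range.

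*EMB1865* is named after an Arabidopsis gene that is required for embryo development, and in Arabidopsis its protein belongs to the CRM-domain family, which is known for the splicing of chloroplast introns. It is the only annotation on the list with several transcripts. PGSC0003DMT400014640 had 28.6, 22.7 and 35.2 normalized effective counts in line 9, 31.2, 33.5 and 43.8 in line 12 and 36.3, 31.5 and 41.3 in line 47, against 26.0, 31.6 and 49.1 in the Wild type. The Wild type covered nearly the whole spread, at 35.6 ± 12.0 (SD, n = 3), and 8 of the 9 RNAi libraries were within its range. PGSC0003DMT400014643 had 41.3, 49.1 and 50.8 in line 9, 59.6, 52.3 and 72.3 in line 12 and 64.4, 65.2 and 78.3 in line 47, against 63.4, 49.4 and 71.0 in the Wild type. Line 9 replicates 1 and 2 were below and line 12 replicate 3 and line 47 replicate 3 above all Wild type libraries. PGSC0003DMT400014644 had 55.1, 50.0 and 60.6 in line 9, 66.2, 60.7 and 59.2 in line 12 and 70.6, 56.7 and 92.9 in line 47, against 62.4, 64.2 and 86.7 in the Wild type. Here 6 of the 9 RNAi libraries were below every Wild type library, among them all 3 of line 9, but line 47 replicate 3 was the highest of all 12.

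Summed over the 3 transcripts, *EMB1865* had 125.0, 121.9 and 146.6 normalized effective counts in line 9, 157.1, 146.5 and 175.3 in line 12 and 171.3, 153.4 and 212.6 in line 47, against 151.9, 145.2 and 206.8 in the Wild type. The groups overlapped, with 6 of 9 RNAi libraries inside the Wild type range. The means were 156.6 ± 27.7 (SD, n = 9) in RNAi periderm and 167.9 ± 33.8 (SD, n = 3) in the Wild type, which put RNAi at 93.3% of Wild type (two-sided exact permutation test, p = 0.627273). The mean was 131.2, 159.6 and 179.1 in lines 9, 12 and 47. This order is not that of *StRIK*, since line 9 had the lowest mean of *EMB1865* and the highest mean of *StRIK* among the lines. The libraries of lines 9 and 12 met only at 146.6 and 146.5, and those of lines 12 and 47 overlapped, as did those of each line and the Wild type. The joint test of the 3 lines gave an unadjusted p = 0.0856 and an adjusted p = 0.492 for the sum (edgeR, Benjamini-Hochberg).

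The shares of the 3 transcripts in the summed *EMB1865* counts overlapped between genotypes. PGSC0003DMT400014640 took 21.6% ± 2.2 of the summed counts in RNAi libraries (SD, n = 9) and 20.9% ± 3.4 in the Wild type (SD, n = 3). PGSC0003DMT400014643 took 37.8% ± 3.1 in RNAi libraries and 36.7% ± 4.4 in the Wild type, and PGSC0003DMT400014644 took 40.6% ± 3.3 in RNAi libraries and 42.4% ± 1.6 in the Wild type. The differences of 0.73, 1.04 and -1.78 percentage points did not pass (two-sided exact permutation tests, unadjusted p = 0.645455, p = 0.654545 and p = 0.381818, 3 tests).

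PGSC0003DMT400055483, the conserved gene of unknown function, had 169.4, 177.4 and 249.2 normalized effective counts in line 9, 207.2, 238.6 and 260.8 in line 12 and 241.9, 190.2 and 208.3 in line 47, against 244.4, 241.0 and 196.3 in the Wild type. RNAi libraries lay on both sides, with 3 below and 2 above all Wild type libraries. The mean was 215.9 ± 33.1 in RNAi libraries (SD, n = 9) and 227.3 ± 26.8 in the Wild type (SD, n = 3).

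PGSC0003DMT400042918, annotated only as an ATP binding protein, varied most among the lines. It had 157.8, 223.8 and 131.9 normalized effective counts in line 9, 118.3, 87.9 and 122.7 in line 12 and 148.5, 153.4 and 154.9 in line 47, against 130.0, 110.6 and 177.5 in the Wild type. Line 9 replicate 2 was the highest and line 12 replicate 2 the lowest of all 12 libraries, and the other 7 RNAi libraries were within the Wild type range. The order of the line means was line 9 (171.2 ± 47.4), line 47 (152.3 ± 3.4), Wild type (139.4 ± 34.4) and line 12 (109.6 ± 19.0, all SD, n = 3). Line 9 and line 47 each overlapped the Wild type, as did line 12.

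PGSC0003DMT400073845 is annotated as Dnajc14, a DnaJ protein. DnaJ proteins are co-chaperones that bring client proteins to Hsp70. It had 216.0, 195.6 and 184.7 normalized effective counts in line 9, 206.3, 207.2 and 174.2 in line 12 and 178.6, 215.4 and 174.7 in line 47, against 185.1, 208.4 and 244.4 in the Wild type. It was the steadiest of the 7 among RNAi libraries, with a coefficient of variation of 8.81%, against 14.0% in the Wild type. The mean was 194.7 ± 17.1 in RNAi libraries (SD, n = 9) and 212.6 ± 29.8 in the Wild type (SD, n = 3), and 4 RNAi libraries were below all Wild type libraries.

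PGSC0003DMT400030423 is annotated as an extensin, a hydroxyproline-rich glycoprotein of the cell wall. Its effective counts before scaling and rounding were 1.14, 1.11 and 3.15 in line 9, 0 in each library of line 12 and 0, 2.22 and 1.11 in line 47, against 3.20, 1.05 and 1.13 in the Wild type. A count of 0 allows up to 3 counts in a library, counting error alone considered, and after rounding the transcript had no more than 3 counts anywhere. Its rounded counts summed to 8 over 9 RNAi libraries and to 5 over 3 Wild type libraries. A difference in this transcript was therefore not detectable at this depth, and no fold is given. It was under the minimum of 10 counts in the study's comparison and passed the minimum, with 13 counts, only when all 12 libraries were fitted.

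To ask whether any possible off-target differed with the hairpin, RNAi was compared with Wild type across all transcripts in edgeR (quasi-likelihood test, Benjamini-Hochberg adjustment, threshold 0.05). Over the 6 RNAi libraries of the study, 0 of the 6 candidates tested were called, beside 0.0426% of the 37552 transcripts tested. Over all 9 RNAi libraries, 0 of 7 were called, beside 0.0391% of 38364. By edgeR's unadjusted p under 0.05 the counts were also 0 of 6, beside 5.81% of transcripts, and 0 of 7, beside 6.73%. DESeq2 and limma-voom called 0 candidates as well. By edgeR's adjusted p, summed *StRIK* itself passed over the 6 libraries, which were chosen for low *StRIK*, and not over all 9. With the 6 libraries of the study, 0 candidates had all RNAi libraries below every Wild type library, beside 1.36% of transcripts, and 0 had all above, beside 1.48%. The median log2FC of the candidates was -0.04 over the study's libraries, against -0.0017 for all transcripts, and -0.07 over all 9, against 0.01.

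Over the study's 6 RNAi libraries PGSC0003DMT400014640 stood at 100.9% of Wild type (95% interval 69.8 to 145.9%), PGSC0003DMT400014643 at 101.8% (72.8 to 142.4%) and PGSC0003DMT400014644 at 92.9% (67.8 to 127.3%). PGSC0003DMT400055483 stood at 96.0% (75.2 to 122.4%), PGSC0003DMT400042918 at 98.7% (71.5 to 136.4%) and PGSC0003DMT400073845 at 91.4% (73.8 to 113.1%). All 6 intervals included 100%, and the lowest of their lower bounds, 67.8%, was above the 62.6% that bounded *StRIK* from above (50.8%, interval 41.3 to 62.6%, in libraries that had been chosen for low *StRIK*). Decreases as far as these lower bounds are within the error of the comparison. Over all 9 RNAi libraries the same 6 transcripts stood between 89.6% (PGSC0003DMT400014644) and 103.7% of Wild type (PGSC0003DMT400042918). Their log2FC was between -0.16 and 0.05 with SE between 0.12 and 0.23, and adjusted p was between 0.866 and 0.979 (edgeR, Benjamini-Hochberg).

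**Figure D3:**
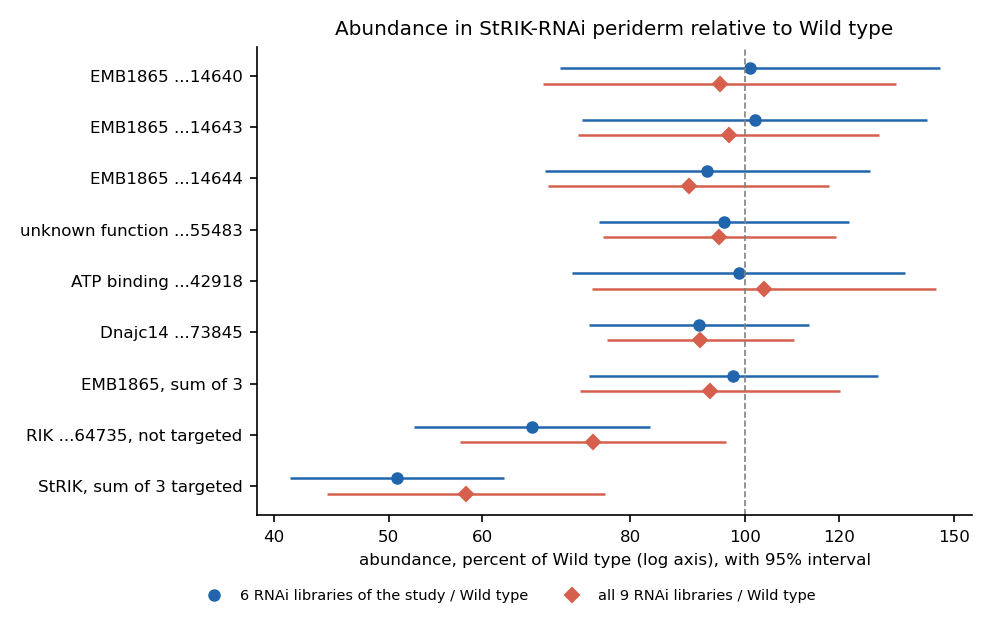
Abundance as percent of Wild type on a log axis (x) for 6 possible off-targets, the summed *EMB1865* transcripts, the untargeted RIK isoform and summed *StRIK* (y). Circles are the study's 6 RNAi libraries and diamonds all 9, each against 3 Wild type libraries, and bars are 95% intervals from edgeR's fit. The intervals of the candidates cross 100%, and those of *StRIK*, 41.3 to 62.6% and 44.4 to 76.1%, do not.

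The 3 RNAi libraries that the study left out, which were compared after the data had been seen, are the ones with more *StRIK*, at 72.7% of Wild type on average. There PGSC0003DMT400014644 was at 82.5% (95% interval 57.8 to 117.6%) and PGSC0003DMT400042918 at 113.2% (69.8 to 183.8%), and the log2FC of PGSC0003DMT400014640 and PGSC0003DMT400014643 was -0.27 ± 0.32 and -0.21 ± 0.22 (SE). Of the 6 candidates 0 were called by edgeR with Benjamini-Hochberg adjustment in these libraries, beside 0% of 36792 transcripts, and 0 had an unadjusted p under 0.05, beside 12.1%.

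Whether the change of each candidate differed from that of *StRIK* was tested on the ratio of the 2 within each library (log2 CPM with a pseudocount of 0.5). The log2 change of PGSC0003DMT400042918 minus that of *StRIK* was 0.85 over the 9 RNAi libraries (exact permutation, two-sided, p = 0.009091, again the smallest value possible), and the ratio in all 9 RNAi libraries was above that of every Wild type library. For PGSC0003DMT400073845 the difference was 0.69 (p = 0.018182), for PGSC0003DMT400055483 0.73 (p = 0.027273), for PGSC0003DMT400014640 0.77 (p = 0.036364), for PGSC0003DMT400014643 0.76 (p = 0.036364) and for PGSC0003DMT400014644 0.67 (p = 0.045455), by the same exact permutation test. In these 5 the ratio was above every Wild type library in 7 or 8 of 9 RNAi libraries, the exceptions being among line 9. For *EMB1865* summed, the difference was 0.71 (exact permutation test, p = 0.063636), with 7 of 9 above. *StRIK*, the denominator, was itself below every Wild type library in all 9 RNAi libraries. A transcript without a change of its own would thus tend to show such a ratio too. The share of all transcripts that do was not computed, so whether the ratio is particular to these candidates is not known. Its p-values are not read as a result particular to them. These 7 p-values are not adjusted, the ratios share the *StRIK* counts, and the test takes the libraries of a line as independent. Only PGSC0003DMT400042918 kept p under 0.05 with each library left out in turn, where its p was at most 0.036364. PGSC0003DMT400014644 passed 0.05 only in 2 of 12 such tests, and PGSC0003DMT400014640, PGSC0003DMT400014643, PGSC0003DMT400055483 and PGSC0003DMT400073845 lost it without Wild type replicate 1 or 2, the first 3 also without replicate 3, with exact permutation p between 0.072727 and 0.145455. Within lane tag 6, with 2 RNAi libraries and 3 Wild type, the differences were 0.59 to 0.97, all in the same direction, and p could not go below 0.2.

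The excess over *StRIK* was smallest in line 9, which held the most *StRIK*, for all countable candidates except PGSC0003DMT400042918, for which it was smallest in line 12. The excess subtracts the change of *StRIK*, so a line with more *StRIK* tends to a smaller excess by construction. The pattern is therefore not read as a difference of the candidates among lines. No test of the lines was made on this ratio. In line 9 the log2 difference from *StRIK* was 0.21 for summed *EMB1865*, 0.33 for PGSC0003DMT400055483, 0.44 for PGSC0003DMT400073845 and 0.80 for PGSC0003DMT400042918. In line 12 the same differences were 0.91, 1.02, 0.86 and 0.66, and in line 47 they were 1.02, 0.84, 0.77 and 1.07.

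Each line was then set against the Wild type in 1 edgeR fit of all 12 libraries, since the lines are separate transformation events. Libraries of lines 9 and 12 all have tag 7 and those of the Wild type all have tag 6. For these lines, line and tag cannot be told apart. In line 9, 0 of 7 candidates were called beside 0.0756% of 38364 transcripts, in line 12, 0 of 7 beside 0.0547%, and in line 47, 0 of 7 beside 0.0756% (edgeR, Benjamini-Hochberg). DESeq2 also called 0 of 7 in each line. Summed *StRIK* was itself not called in lines 9, 12 and 47, with adjusted p = 0.426, 0.159 and 0.232 (edgeR, Benjamini-Hochberg). A decrease of the size of the *StRIK* difference could therefore be missed by this threshold within a line. An unadjusted p under 0.05 was seen for 0, 1 and 0 candidates in lines 9, 12 and 47, beside 10.5%, 11.2% and 5.33% of transcripts. The 1 was the extensin transcript in line 12, at 0 counts in all libraries of that line, with adjusted p = 0.395 (edgeR, Benjamini-Hochberg).

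In line 9 the 3 *EMB1865* transcripts were the lowest relative to Wild type. PGSC0003DMT400014640 was at 81.2% (95% interval 52.8 to 124.7%), PGSC0003DMT400014643 at 77.0% (56.7 to 104.6%) and PGSC0003DMT400014644 at 77.8% (56.5 to 107.1%), while *StRIK* was at 70.3% (52.1 to 94.8%) in the same libraries. The sum of the 3 was at 78.2% (59.4 to 102.9%, adjusted p = 0.513 by edgeR with Benjamini-Hochberg adjustment). PGSC0003DMT400042918 was the highest candidate there, at 122.9% (87.5 to 172.7%). In this line the intervals of *EMB1865* and *StRIK* thus overlap over most of their length. For 1 of the 7 candidates, PGSC0003DMT400014644, all 3 libraries of line 9 were below all Wild type libraries, beside 5.9% of all transcripts, and in line 12 the same held for 1 of 7, the extensin transcript, beside 7.28%. In line 47 it held for 0 of 7, beside 5.34%. All libraries above every Wild type library were seen for 0 of 7 in line 9, line 12 and line 47, beside 6.3%, 8.2% and 5.57% of transcripts.

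In line 12 PGSC0003DMT400042918 was the lowest, at 79.2% (95% interval 56.1 to 111.7%), and PGSC0003DMT400055483 was at 104.2% (78.9 to 137.6%). In line 47 the summed *EMB1865* transcripts were at 106.3% (81.0 to 139.6%) and PGSC0003DMT400073845 was at 88.8% (70.1 to 112.5%). *StRIK* was at 51.4% and 52.6% in lines 12 and 47 in the same fit, with upper bounds of 69.5% and 71.1%, which are below the lower bound of summed *EMB1865* in both lines (72.7% and 81.0%). Several single candidates overlapped *StRIK*. Their lower bounds in line 12 were 66.9% (PGSC0003DMT400014640), 63.9% (PGSC0003DMT400014644) and 56.1% (PGSC0003DMT400042918). In line 47 they were 67.0% (PGSC0003DMT400014640), 70.1% (PGSC0003DMT400073845) and 70.8% (PGSC0003DMT400055483). The other countable candidates did not overlap it.

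**Figure D4:**
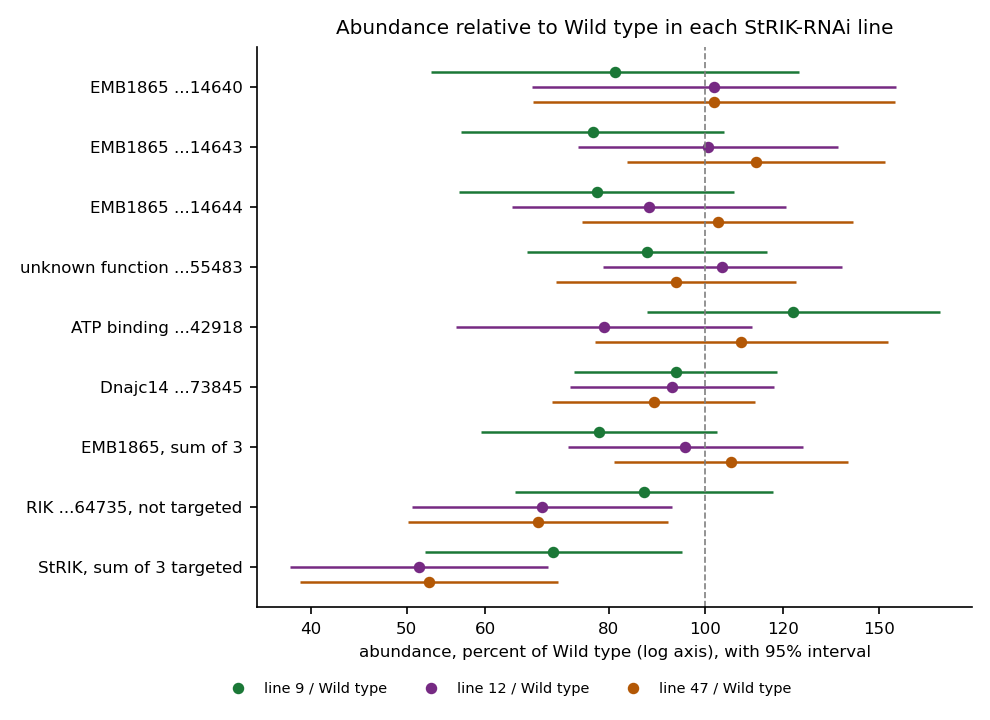
Abundance as percent of Wild type on a log axis (x) for 6 possible off-targets, summed *EMB1865*, the untargeted RIK isoform and summed *StRIK* (y) in line 9, line 12 and line 47, from top to bottom in each row, with 95% intervals from edgeR's fit of 12 libraries. All intervals of the candidates cross 100%, those of *EMB1865* lie lowest in line 9, and the intervals of *StRIK* lie below 100% in the 3 lines.

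Differences among the 3 lines were tested jointly. Of the 7 candidates 0 were called, beside 0.0417% of 38364 transcripts (edgeR, Benjamini-Hochberg), and DESeq2 called 0. By unadjusted p under 0.05, 1 of 7 passed, beside 11.3% of transcripts. That was PGSC0003DMT400042918, with adjusted p = 0.432 in edgeR's fit with Benjamini-Hochberg adjustment. Its libraries were below the Wild type mean in line 12 and above it in line 47. PGSC0003DMT400014643 followed (adjusted p = 0.443, edgeR, Benjamini-Hochberg), and was below the Wild type mean in each library of line 9 and above it in each of line 47. Without line 12 replicate 2 the adjusted p of PGSC0003DMT400042918 was 0.661, and over all single libraries left out it was between 0.297 and 0.661.

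A transcript lowered by the same hairpin could follow *StRIK* from library to library, so a slope on log2 *StRIK* abundance was fitted over the 9 RNAi libraries alone. Of the 6 candidates tested 0 were called, beside 0.0053% of 37723 transcripts, and 0 had an unadjusted p under 0.05, beside 15.4% of transcripts (edgeR, Benjamini-Hochberg). Summed *StRIK*, fitted on its own abundance, was not called either (adjusted p = 0.0586, edgeR, Benjamini-Hochberg). DESeq2 called 0. The slopes of the 3 *EMB1865* transcripts were negative, that is, log2 abundance changed by -0.56 (95% interval -1.25 to 0.13) for PGSC0003DMT400014640, by -0.36 (-1.05 to 0.33) for PGSC0003DMT400014643 and by -0.24 (-0.92 to 0.44) for PGSC0003DMT400014644 per doubling of *StRIK*. PGSC0003DMT400055483 had a slope of -0.34 (-0.85 to 0.18), PGSC0003DMT400073845 of 0.06 (-0.36 to 0.49) and PGSC0003DMT400042918 of 0.58 (-0.08 to 1.25). A slope of 1 would mean a change in proportion to *StRIK*, and it was inside the interval of PGSC0003DMT400042918 alone. The untargeted isoform PGSC0003DMT400064735 had a slope of 0.81 (0.41 to 1.22). With the line as a factor beside the slope, the intervals widened and the slopes were 0.33 (-0.45 to 1.10) for PGSC0003DMT400042918 and 0.14 (-0.63 to 0.91) for PGSC0003DMT400014643. The slope of PGSC0003DMT400042918 was 0.12 without line 9 replicate 2, its highest library and the RNAi library with the most *StRIK*, and with any other library left out it ran up to 0.86.

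**Figure D5:**
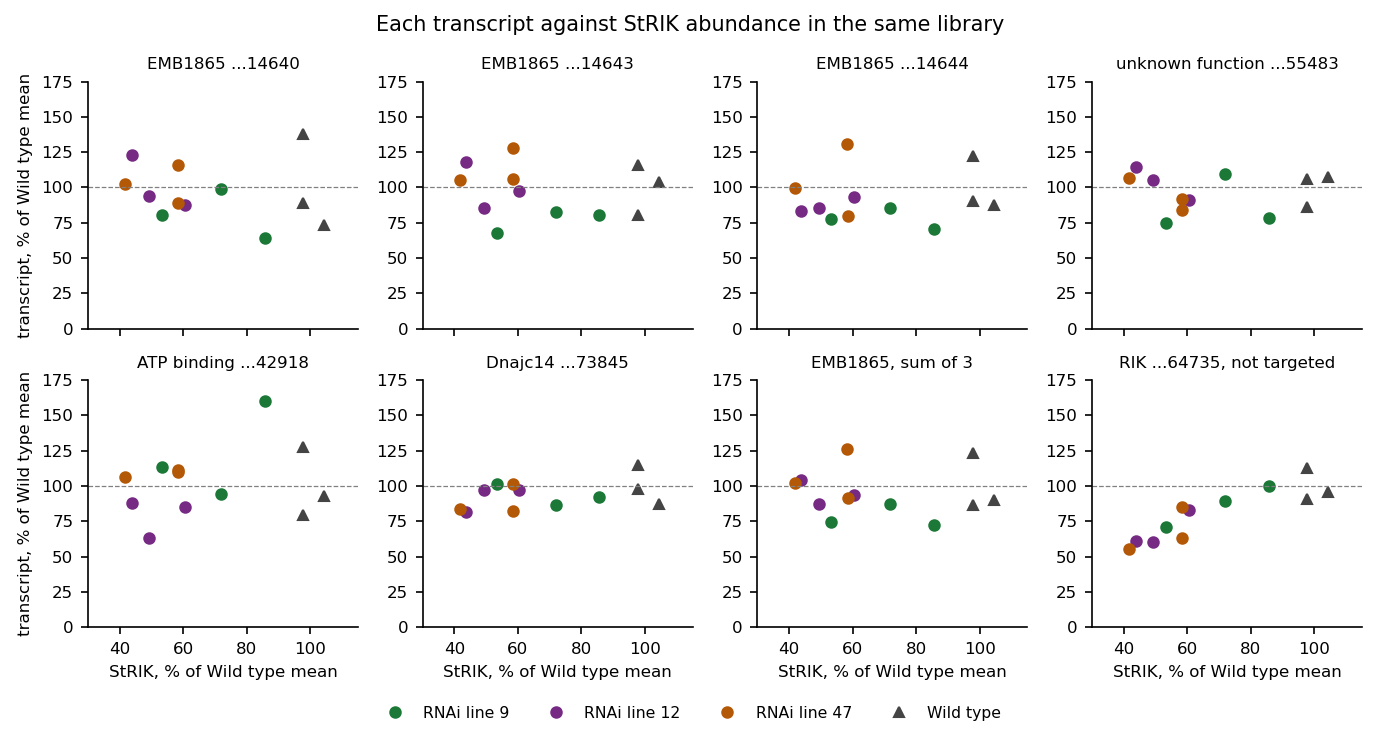
Each transcript as percent of its Wild type mean (y) against summed *StRIK* as percent of its Wild type mean (x) in the same library, for 6 possible off-targets, summed *EMB1865* and the untargeted RIK isoform. Circles are RNAi libraries coloured by line and triangles Wild type libraries. In the library with the lowest *StRIK* (41.8%) the untargeted isoform is also lowest, at 180.6 normalized effective counts, and in the RNAi library with the most *StRIK* (85.7%) it is at 323.9, while *EMB1865* summed is at 171.3 and 121.9 there.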

How the data were processed

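Values were taken from the deposited effective counts of 12 periderm libraries. The authors sequenced TruSeq RNA libraries on an Illumina HiSeq, checked reads with FastQC 0.11.2 and aligned them by Bowtie 2 against annotated transcripts of the Phureja group of *S. tuberosum* (assembly v4.03, a different group from the cultivar Désirée), from which eXpress 1.5.1 estimated abundance. The deposited values are estimated counts per transcript, not normalized between libraries, at 18650236 to 21585122 per library.

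Counts were rounded, scaled by TMM and tested in edgeR 4.0.16 (glmQLFit, glmQLFTest, R 4.3.3) on transcripts that reached 10 counts summed over the libraries of a fit, with Benjamini-Hochberg adjustment and a threshold of 0.05. The 95% intervals come from that fit. The fits of RNAi against Wild type and the exact permutation tests took libraries of the same line to be independent. Their p-values rest on the spread between these libraries. Ratios to *StRIK* used log2 CPM with a pseudocount of 0.5, and single values by exact permutation tests, all two-sided (Python 3.11.15, scipy 1.17.1). The fits were tested on simulated counts. Intervals and the floor of 3 counts cover counting error or library spread only. DESeq2 1.42.0, RLE size factors, limma-voom (limma 3.58.1), other count minimums, summed isoforms, a block for the replicate number, the lane tag, the line as a factor, other pseudocounts and each library left out were tried as alternatives. The named transcripts were all those of other genes on the study's list of matches to the fragment and the 4 RIK isoforms, whatever their values. Members and lists were chosen with earlier results of these data known. Lists of related gene families and of RNA silencing genes were planned, but the tables used here do not link such names to these identifiers. Genome positions of the transcripts were not used here.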

Additional observations from a re-analysis of the deposited data

Results flagged for a closer look

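PGSC0003DMT400014644, 1 of the 3 *EMB1865* transcripts, had 92.9 normalized effective counts in line 47 replicate 3, and its gap to the nearest of the other 8 RNAi libraries was 0.521 of the range of the 9, above Dixon's 95% critical value. The other 8 lay between 50.0 and 70.6, against 62.4 to 86.7 in the Wild type. Chance alone passes that value in about 1 of 20 groups, and 18 groups were examined. Without this library the transcript stood at 84.1% of Wild type over the RNAi libraries, against 89.6% with it.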

How the results depend on the processing

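Of the possible off-target transcripts, 0 were called in the 7 comparisons under any alternative, and the lowest adjusted p was 0.251 (edgeR, Benjamini-Hochberg), that of the extensin transcript in line 12 without Wild type replicate 3. Counts over all transcripts moved far more. In the study's comparison edgeR called 16, DESeq2 85 and the edgeR alternatives 6 to 47, apart from 0 in the 3 RNAi libraries that the study left out. The same counts were 15, 96 and 7 to 37 over all 9 RNAi libraries, 29, 261 and 16 to 66 in line 9, 21, 400 and 6 to 203 in line 12, 29, 205 and 12 to 54 in line 47, 16, 679 and 10 to 47 among lines, and 2, 1239 and 0 to 298 for the slope on *StRIK*. The cause was not tested.

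With the replicate number as a block, 0 candidates were called in every comparison, and edgeR called 9, 7, 16, 11, 20, 11 and 0 transcripts in the order above. The labels do not say that equal numbers mark a pair, and deviations of same-numbered libraries correlated between -0.459 and 0.448, over 0.1 in 5 of 18 pairs, so the numbers were not taken as pairing the samples.

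The direction of a candidate changed in 50 of 642 refits, with the value called in neither setting. In the study's comparison the log2FC of PGSC0003DMT400014644 was 0.0789 with the lane tag as a covariate and 0.0895 within lane tag 6, and that of PGSC0003DMT400042918 was 0.15 in both. Over all 9 RNAi libraries these 2 settings gave 0.029 and 0.0486 for PGSC0003DMT400014640, 0.22 and 0.24 for PGSC0003DMT400014643, and 0.0685 and 0.0895 for PGSC0003DMT400014644. In the 3 RNAi libraries that the study left out, a setting chosen after seeing the data, it was -0.27 for PGSC0003DMT400014640, -0.21 for PGSC0003DMT400014643 and 0.18 for PGSC0003DMT400042918. With the line as a factor the slope on *StRIK* was 0.14 for PGSC0003DMT400014643 and 0.0494 for PGSC0003DMT400014644. Within lane tag 6 summed *EMB1865* was at 109.0% of Wild type and the share of PGSC0003DMT400014640 differed by -0.89 percentage points.

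Single libraries left out also turned directions, all without a call. In the study's comparison the log2FC ran between -0.17 and 0.32 for PGSC0003DMT400014640, -0.11 and 0.15 for PGSC0003DMT400014643, -0.23 and 0.0658 for PGSC0003DMT400014644, -0.16 and 0.20 for PGSC0003DMT400042918 and -0.15 and 0.0031 for PGSC0003DMT400055483. Over all 9 RNAi libraries it ran between -0.25 and 0.23 for PGSC0003DMT400014640, -0.18 and 0.0708 for PGSC0003DMT400014643, -0.25 and 0.0053 for PGSC0003DMT400014644 and -0.0861 and 0.26 for PGSC0003DMT400042918. In line 9 PGSC0003DMT400073845 ran between -0.19 and 0.012. In line 12 the ranges were -0.15 to 0.33 for PGSC0003DMT400014640, -0.13 to 0.13 for PGSC0003DMT400014643 and -0.0374 to 0.14 for PGSC0003DMT400055483. In line 47 they were -0.15 to 0.33 for PGSC0003DMT400014640, -0.16 to 0.21 for PGSC0003DMT400014644 and -0.0137 to 0.33 for PGSC0003DMT400042918. The slope of PGSC0003DMT400014644 ran between -0.33 and 0.0646, the share of PGSC0003DMT400014640 between -1.15 and 2.16 points, that of PGSC0003DMT400014643 between -0.30 and 3.58 points, and summed *EMB1865* between 87.3 and 105.5% of Wild type.

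Of the differences from *StRIK*, those within lane tag 6 kept their direction at an exact permutation p of 0.2, with 0.59 for PGSC0003DMT400055483, 0.82 for PGSC0003DMT400014640, 0.97 for PGSC0003DMT400014643, 0.81 for PGSC0003DMT400014644, 0.93 for PGSC0003DMT400042918 and 0.65 for PGSC0003DMT400073845, and *StRIK* itself was there at 58.4% of Wild type. A pseudocount of 0.05 CPM gave 0.77 for PGSC0003DMT400014640 and 0.65 for PGSC0003DMT400014644 (exact permutation p = 0.072727 for both). Summed *EMB1865* passed 0.05 in the study's libraries (0.95), with a pseudocount of 5 CPM (0.69) and without line 9 replicate 2 or 3 (0.83 and 0.77). The study chose its libraries for low *StRIK*, and these 2 replicates of line 9 are the RNAi libraries with the most *StRIK*, so those 3 settings select on the denominator of the ratio and their p is not read as support. Over single libraries left out the differences ran between 0.65 and 0.84 for PGSC0003DMT400055483, 0.59 and 0.99 for PGSC0003DMT400014640, 0.65 and 0.87 for PGSC0003DMT400014643, 0.56 and 0.81 for PGSC0003DMT400014644, 0.72 and 1.04 for PGSC0003DMT400042918, 0.57 and 0.81 for PGSC0003DMT400073845 and 0.62 and 0.88 for summed *EMB1865*. The cause was not tested.

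The 3 Wild type libraries set the error of every comparison, and decreases within the printed intervals could not be seen. The *EMB1865* transcripts had at most 92.9 normalized effective counts in a library, and the extensin transcript could not be compared at this depth. Lines and lane tags are partly confounded with genotype. For lines 9 and 12 the tag is fully so, since all their libraries have tag 7 and all Wild type libraries tag 6. Small RNAs and protein were not analysed here, and translation is not measured by these counts.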

Other observations

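The study's list of primers was set against the spliced *StRIK* sequence. The pair listed for cloning of the silencing construct (20 nt each, without the cloning overhang) needed at least 5 edits each to match the genomic or coding sequence on either strand and 6 and 7 edits to match the 246 nt fragment. The reverse qPCR primer listed for exons 8 and 9 matched the fragment with 0 edits.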
